A study of Bos taurus with 6 samples.

Results

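The metaphase II (MII) mRNA pool of bovine (Bos taurus) oocytes was described from 3 of the 6 libraries in the series, those in the columns MII14c, MII15 and MII15c of the deposited RPKM table, over all 20707 rows of that table. The MII columns were taken by their stage alone, and no comparison with the germinal vesicle stage was made. Oocytes came from ovaries collected at an abattoir, were taken up by aspiration with their cumulus cells and spent 24 hours in maturation culture. RNA of individual oocytes was turned into amplified cDNA with the SMARTer Ultralow kit, which primes on poly(A) tails, and was read as single Illumina reads. The adapter dilution is given by sample title and was 1 in 50 for MII14c and MII15. The column MII15c matches no title and so has no dilution of its own, and the title MII14, diluted 1 in 30, matches no column. One label calls every sample in the series matured in vitro, so the stage was taken from the stage label. Neither the meaning of the letter c nor the animals of origin are stated, so n = 3 counts libraries, which may share an animal or an oocyte.

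An MII oocyte has finished the first meiotic division and waits, arrested on the second spindle, for fertilization. Its transcription is silent, so its proteins are made from mRNA that was stored while the oocyte grew. Lengthening of a poly(A) tail in the cytoplasm turns such an mRNA on, and removal of the tail turns it off and leads to decay. Because the cDNA was primed on tails, a level here mixes how many transcripts were present with how well their tails were captured. RPKM are reads per kilobase of gene model and per mapped reads of the library, so rows can be compared per length, and every level is relative to the library it was read in.

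MII15 stood apart from the other libraries. It was the shallowest, at 21.35 M reads as recovered from the low RPKM values, against 31.11 M for MII14c and 32.65 M for MII15c, and it listed 9768 rows at 0 against 7400 and 7967. Spearman's rho over the 7779 rows with a mean of at least 1 RPKM was 0.959 for MII14c with MII15c, 0.885 for MII14c with MII15 and 0.908 for MII15 with MII15c. These are correlations across genes, which are not independent replicates and share their model lengths. The spread, the count of 2-fold rows and the leading shares are therefore also given without it.

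The libraries carried oocyte mRNA, and most of the measured markers of other cells were under 1 RPKM in every library. Of 16 oocyte markers, 15 were at 1 RPKM or more in all 3 libraries, and their summed RPKM was 19408 in MII14c, 31353 in MII15 and 23796 in MII15c. Without BTG4 the same sum was 5011, 4098 and 4163. The exception was FIGLA, a transcription factor of early follicles, at 1.06, 0.114 and 0.261 RPKM. Of 20 measured cumulus and granulosa markers, 14 were under 1 RPKM in every library and 8 of these were listed at 0 in all, among them AMH, FSHR, LHCGR and NR5A1, which mark follicle cells. All 20 cumulus and granulosa markers together summed to 111, 120 and 121 RPKM, and most of that was HAS2, the hyaluronan synthase of cumulus expansion (55.4, 58.4 and 64.8 RPKM), and STAR, a cholesterol carrier of steroid synthesis (39.7, 37.3 and 29.3 RPKM). Blood and immune markers summed to 9.46, 2.02 and 5.46 RPKM, with HBB listed at 0 in all 3, and markers of stroma, endothelium and epithelium to 47.2, 26.6 and 40.9 RPKM, most of it KRT8, a keratin, and EPCAM, an adhesion protein.

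The MII pool was concentrated in few mRNAs. The 10 rows of highest mean share held 15.5% of summed RPKM in MII14c, 22.4% in MII15 and 19.2% in MII15c (19.1% ± 3.46, SD, n = 3). The 100 highest held 35.7%, 44.5% and 40.6% (40.2% ± 4.40, SD, n = 3), and the 1000 highest held 73.2%, 79.8% and 76.8% (76.6% ± 3.29, SD, n = 3). In each of these classes MII14c was the least and MII15 the most concentrated library. Ranks 11 to 100 held 20.2%, 22.0% and 21.3%, the ranks from there to 1000 held 37.5%, 35.3% and 36.2%, and all lower rows together held 26.8%, 20.2% and 23.2%. As shares of the whole, the libraries thus differed most at the very top and in the long tail and least in between. Shares of a whole depend on each other. Of the RPKM outside the top 10, ranks 11 to 100 held 23.9%, 28.4% and 26.4% (26.2% ± 2.27, SD, n = 3), with MII14c again lowest and MII15 highest.

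**Figure D1:**
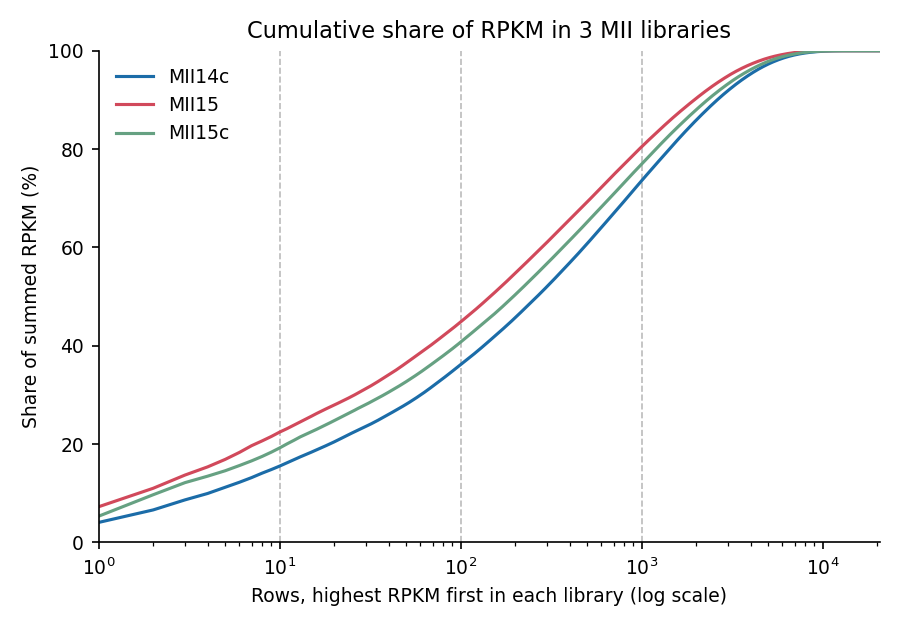
Cumulative share of summed RPKM (vertical axis, percent) against the number of rows counted, highest first in each library's own order (horizontal axis, log scale), with dashed lines at 10, 100 and 1000 rows. The MII15 curve lies above and the MII14c curve below MII15c from the first row on, and each library reaches 50% within its 265 highest rows.

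Counted the other way, 265 rows held 50% of the summed RPKM of MII14c, 146 that of MII15 and 196 that of MII15c. Reaching 90% took 2618, 1955 and 2312 rows. Between 7170 and 8087 rows per library were at 1 RPKM or more, 6580 rows were so in all 3 libraries, and 6439 rows were listed at 0 in all. Only 27, 38 and 30 rows reached 1000 RPKM. Summed RPKM was close between the libraries, at 353726, 375430 and 367748 in the order MII14c, MII15 and MII15c, and every triple of values below follows that order.

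The same 10 rows headed all 3 libraries. BTG4, an adaptor that brings the CCR4-NOT deadenylase to maternal mRNA, was first in each, at 14397, 27255 and 19633 RPKM. It alone was 4.07%, 7.26% and 5.34% of summed RPKM (5.56% ± 1.61, SD, n = 3), and its level in MII15 was 1.89 times that in MII14c. BTG4 lies on chromosome 15 from 22103671 to 22122669 in the authors' annotation, with 690 coding bases in 4 coding exons. Without BTG4 the 9 other leading rows held 11.5%, 15.2% and 13.9% of summed RPKM, so the order of the libraries was the same with this gene left out.

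The second row everywhere was ENSBTAG00000038488, which has no symbol in the table and which the authors' annotation names as thymosin beta 4, a small peptide that binds monomeric actin. It stood at 8990, 14089 and 16034 RPKM and lies on chromosome X from 140973133 to 140977080, with only 189 coding bases. PTTG1, securin, the inhibitor that holds separase until anaphase, was rank 3 everywhere, at 7232, 10116 and 9065 RPKM (chromosome 7, 74119595 to 74127723). BTG4, thymosin beta 4 and PTTG1 together held 8.66%, 13.7% and 12.2% of summed RPKM.

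Protein turnover and cell cycle control filled most of the remaining leading places. UBB, a polyubiquitin gene, stood at 4469, 5711 and 3478 RPKM. SKP1, the adaptor of SCF ubiquitin ligases, was rank 10 in each library at 2477, 3340 and 3154 RPKM. CKS1B, a small partner of cyclin-dependent kinases, stood at 3330, 5110 and 4053 RPKM, with MII15 highest. YPEL5, a zinc-binding protein found with the CTLH ubiquitin ligase, stood at 3197, 6229 and 3921 RPKM and was 1.95 times higher in MII15 than in MII14c.

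PAIP1, a translation factor that binds poly(A)-binding protein, stood at 3626, 3385 and 3219 RPKM, and its highest library was 1.13 times its lowest. The ninth row carries the ortholog symbol ZNF767, whereas the authors' annotation names it OOSP1, oocyte secreted protein 1. It stood at 2605, 3644 and 3304 RPKM on chromosome 15 from 84425141 to 84435312. Symbols in the table are human ortholog names, so a row like this falls into the wrong list by its symbol alone.

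**Figure D2:**
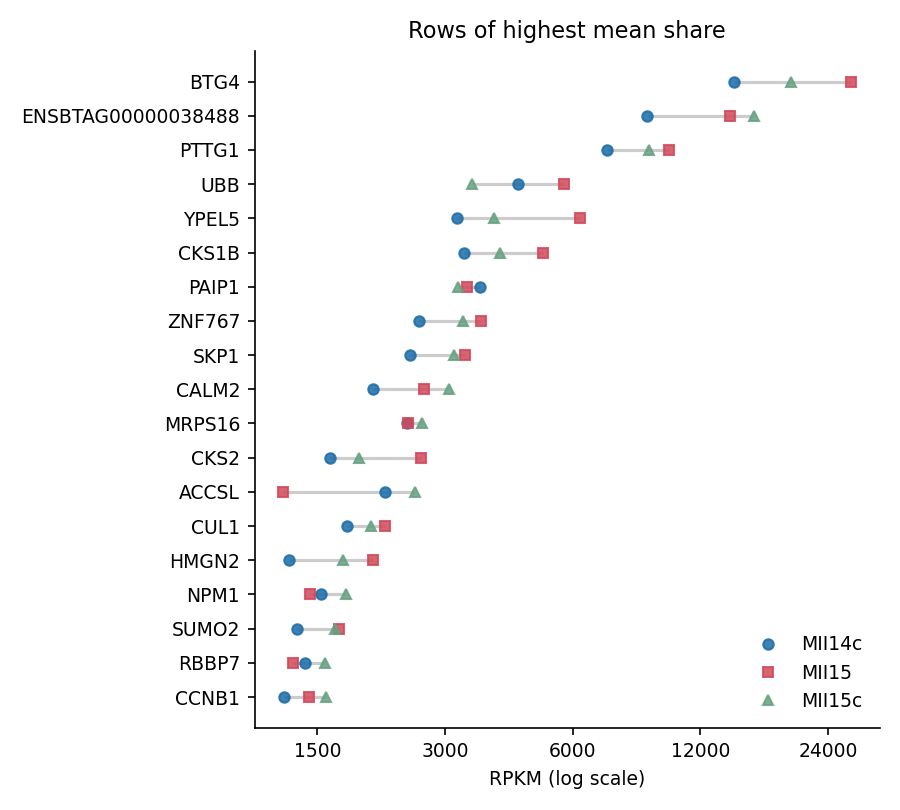
RPKM (horizontal axis, log scale) of 19 of the 20 rows of highest mean share in each of the 3 MII libraries, with a grey line from the lowest to the highest library. BTG4 is highest in every library and spans 14397 to 27255 RPKM, and MII14c is the lowest library for 14 of the 19 rows.

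Below these, the top 100 rows mixed regulators of meiosis with housekeeping mRNA. CKS2, the second Cks protein, stood at 1602, 2635 and 1881 RPKM, and CCNB1, the cyclin that activates CDK1, at 1254, 1429 and 1571 RPKM. CALM2, calmodulin, stood at 2026, 2678 and 3067 RPKM, and MRPS16, a protein of the mitochondrial ribosome, at 2441, 2454 and 2646 RPKM. The annotation gives the MRPS16 row another name, A9Q1J7, which does not settle what the row is. NPM1, a nucleolar histone chaperone, RBBP7, a histone-binding subunit of chromatin complexes, and HMGN2, a nucleosome-binding protein, each exceeded 1000 RPKM in all 3 libraries.

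Of each library's own 100 highest rows, 79 were shared by all 3. MII14c and MII15c shared 90, MII15 and MII15c 85, and MII14c and MII15 79. Rows in the top 100 of 1 library only numbered 10 for MII14c, 15 for MII15 and 4 for MII15c. The 10 of MII14c included spindle genes, PRC1, which bundles midzone microtubules (646, 214 and 366 RPKM), CENPF, a kinetochore protein (520, 322 and 418 RPKM), and CDCA8, borealin of the chromosomal passenger complex (534, 280 and 455 RPKM), together with HSPA8, the constitutive heat shock chaperone (537, 219 and 254 RPKM). The 15 of MII15 included EIF4E, the cap-binding initiation factor (395, 703 and 447 RPKM), TXNDC9, a thioredoxin-like protein (399, 712 and 462 RPKM), and POMP, a proteasome assembly factor (287, 518 and 337 RPKM). PRC1, CENPF, HSPA8 and POMP were picked after their values were seen.

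Rows were sorted by symbol into 23 lists of related function, each row entering 1 list at most. Rows in none of the lists held 42.8% of summed RPKM, and rows with no usable symbol 5.55%. Cell cycle, spindle and checkpoint genes held the largest mean share of the lists, with 7.91%, 8.58% and 8.37% (8.29% ± 0.340, SD, n = 3). In MII15 the list of mRNA storage, tail length and decay held more, 8.90%. Cell cycle genes supplied 10 of the top 100 rows and 59 of the top 1000. Of the 164 cell cycle rows with a mean of at least 1 RPKM, 36.0% were in the top 1000, where the share over all 7779 such rows was 12.9%. No test was made of this or of any other list's place.

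PTTG1 was 29.0% of the cell cycle list's RPKM, and PTTG1 with CKS1B 42.7%. The rest of the list without PTTG1 held 5.89% ± 0.0179 (SD, n = 3). Beyond the Cks proteins and CCNB1, the list's leading rows were AURKA, the spindle pole kinase (954, 893 and 819 RPKM), KIF20B, a kinesin of cytokinesis (598, 627 and 676 RPKM), and TPX2, the activator of AURKA on the spindle (453, 715 and 501 RPKM). WEE2, the oocyte kinase that inhibits CDK1, stood at 518, 390 and 569 RPKM, and MAD2L1, the spindle checkpoint protein MAD2, at 451, 415 and 589 RPKM. The highest library of AURKA and KIF20B was 1.16 and 1.13 times the lowest.

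The list of mRNA storage, tail length and decay held 6.02%, 8.90% and 7.03% (7.32% ± 1.47, SD, n = 3), and BTG4 was 75.9% of it. BTG4 and PAIP1 together were 88.7%, and the list without BTG4 held 1.76% ± 0.163 (SD, n = 3). Also in the top 100 was PAPOLG, a poly(A) polymerase, at 676, 618 and 612 RPKM. The next were far lower. EXOSC8, a subunit of the RNA exosome, stood at 162, 196 and 184 RPKM, CNOT7, a catalytic deadenylase of CCR4-NOT, at 104, 129 and 134 RPKM, and DAZL, which promotes translation through 3′ UTR binding, at 80.9, 137 and 98.97 RPKM. In all 12 of the 89 measured rows, 13.5%, were in the top 1000, beside 12.9% of all measured rows, so the list's large share rested on BTG4 and PAIP1 and not on its breadth.

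The ubiquitin and proteasome list held 6.37%, 6.96% and 6.23% (6.52% ± 0.384, SD, n = 3) with 7 rows in the top 100 and 35 in the top 1000, 20.2% of its 173 measured rows. UBB and SKP1, given above, were among its leading rows. CUL1, the scaffold of SCF ligases, stood at 1758, 2165 and 2007 RPKM, but the row read so highly is a model with 1 coding exon whose symbol also stands on another row. SUMO2, a ubiquitin-like modifier, stood at 1345, 1682 and 1651 RPKM, and PSMA5, a core proteasome subunit, at 599, 738 and 697 RPKM.

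**Figure D3:**
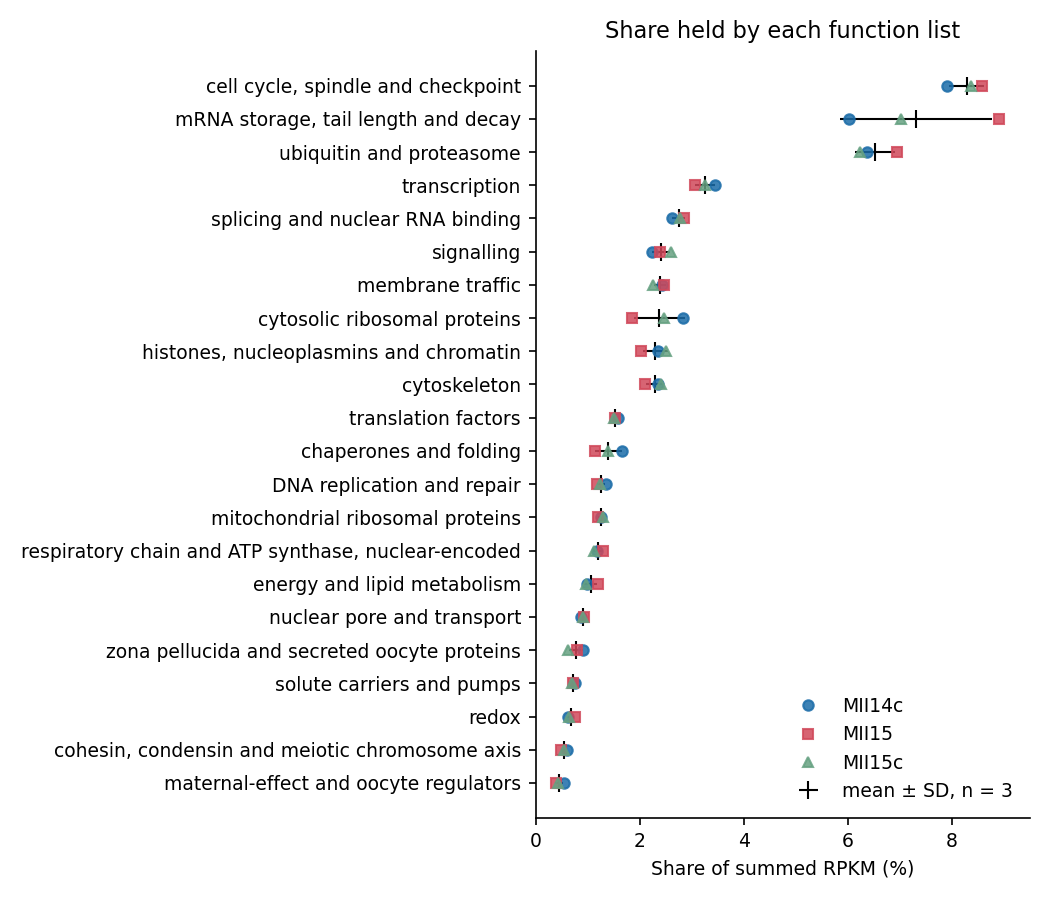
Share of summed RPKM (horizontal axis, percent) held by each function list in the 3 MII libraries, with black bars for the mean ± SD (n = 3). Cell cycle, mRNA storage and ubiquitin lists each hold over 6% in every library, and the mRNA storage list varies most, from 6.02% in MII14c to 8.90% in MII15.

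The machinery of protein synthesis was broad and moderate in level. Cytosolic ribosomal proteins held 2.83%, 1.85% and 2.46% (2.38% ± 0.493, SD, n = 3), with 4 rows in the top 100 and 36 of 106 measured rows, 34.0%, in the top 1000. RPS27A, a ribosomal protein made as a fusion with ubiquitin, was the highest at 775, 773 and 780 RPKM, followed by RPSA (837, 571 and 864 RPKM), RPS3 (672, 607 and 633 RPKM) and RPL26L1 (511, 639 and 582 RPKM). Translation factors held 1.53% ± 0.0407 (SD, n = 3), and 15 of 60 measured rows were in the top 1000. EIF3L and EIF3E, subunits of initiation factor eIF3, led them at 892, 1115 and 993 RPKM and at 680, 1012 and 766 RPKM. EIF4A2, an RNA helicase of initiation, stood at 683, 543 and 639 RPKM.

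Splicing and nuclear RNA-binding genes held 2.75% ± 0.125 (SD, n = 3) with 6 rows in the top 100 and 33 of 132 measured rows in the top 1000. MAGOH, a core protein of the exon junction complex, stood at 877, 1249 and 1217 RPKM. The Sm proteins of spliceosomal snRNPs followed, with SNRPG at 655, 910 and 745 RPKM and SNRPF at 607, 901 and 763 RPKM. SNRPG also has another row in the top 100 (446, 653 and 527 RPKM), and both rows have 1 coding exon and equal coding length, so how reads fell between near-identical copies is uncertain.

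The cytoskeleton list held 2.29% ± 0.163 (SD, n = 3) by symbol. Of its 6 rows in the top 100, TPM3, tropomyosin, was first by mean at 1675, 330 and 1421 RPKM, but that row has 1 coding exon and its symbol stands on 3 rows. TMSB4X, also thymosin beta 4, had 2 single-exon rows in the top 100, at 636, 1081 and 1237 RPKM and at 319, 1118 and 497 RPKM. TUBA1C, an alpha tubulin, stood at 797, 797 and 772 RPKM. With the thymosin row of no symbol, dynein light chain (ENSBTAG00000024605, 718, 715 and 662 RPKM) and twinfilin TWF1 (485, 904 and 592 RPKM) placed here by their annotation, 9 cytoskeletal rows in the top 100 held 5.19% ± 0.971 (SD, n = 3). The 6 rows listed by symbol held 1.27% ± 0.0990 (SD, n = 3). The thymosin row of no symbol, at 8990, 14089 and 16034 RPKM, was by far the largest of the 9. The placement by hand, of 19 rows in all, was made after their values were seen. It also raised the top-100 count of the cell cycle list from 10 to 15 and of the mRNA storage list from 3 to 5.

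Secreted oocyte proteins were few but high. Of 8 measured rows in the list of zona pellucida and secreted oocyte proteins, 5 were in the top 1000, and the list held 0.902%, 0.795% and 0.623%. The row labelled ZNF767, named OOSP1 by the annotation, is not among these. With it placed here by hand, the list's top-100 rows held 1.47% ± 0.132 (SD, n = 3), against 0.606% ± 0.131 by symbol. ZP2, a zona pellucida glycoprotein that binds sperm, stood at 1079, 1513 and 862 RPKM, and BMP15, the growth factor sent to cumulus cells, at 1435, 918 and 826 RPKM. ZP4 stood at 231, 373 and 286 RPKM and GDF9, the partner of BMP15, at 205, 129 and 145 RPKM. ZP3 stood at 176, 25.04 and 128 RPKM. MII15 was thus the highest library for ZP2 and ZP4 and the lowest for ZP3 and GDF9.

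The list of maternal-effect genes held 0.541%, 0.382% and 0.433% and had no row in the top 100. Such genes supply mRNA or protein that the embryo needs from the oocyte. Each row entered 1 list at most, so this list leaves out the oocyte genes BTG4, NPM2 and WEE2, which other lists took. MAEL, a piRNA pathway protein, led at 404, 493 and 364 RPKM, followed by OOEP of the subcortical maternal complex at 406, 169 and 424 RPKM. NLRP14, an oocyte NLR protein, stood at 222, 206 and 162 RPKM and KPNA7, an oocyte importin, at 210, 130 and 186 RPKM. In all 7 of 29 measured rows, 24.1%, were in the top 1000.

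Chromatin genes held 2.36%, 2.03% and 2.51% (2.30% ± 0.244, SD, n = 3), led by HMGN2 (1286, 2029 and 1727 RPKM), NPM1 (1530, 1437 and 1753 RPKM) and RBBP7 (1404, 1312 and 1563 RPKM). The next row of that list, NPM2, the oocyte nucleoplasmin that decondenses sperm chromatin, stood at 557, 242 and 514 RPKM. A row with no symbol, ENSBTAG00000024561, is named histone H3.3 by the annotation and stood at 1027, 1282 and 1381 RPKM. Transcription genes held 3.26% ± 0.191 (SD, n = 3), of which the row labelled ZNF767 was 26.7%. After it came POLR2J, a subunit of RNA polymerase II (747, 640 and 722 RPKM). Chaperones held 1.40% ± 0.261 (SD, n = 3) with no row in the top 100, and HSP90AB1, a cytosolic HSP90, was their highest at 382, 318 and 453 RPKM.

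Among metabolic lists, nuclear-encoded respiratory chain and ATP synthase genes held 1.20% ± 0.0887 (SD, n = 3), led by ATP5J, a subunit of ATP synthase (621, 903 and 680 RPKM), and COX7A2L, a factor of respiratory supercomplexes (323, 427 and 387 RPKM). Energy and lipid genes held 1.05% ± 0.130 (SD, n = 3), and 35.4% of that was CS, citrate synthase, the entry enzyme of the citric acid cycle. CS stood at 899, 2221 and 1005 RPKM, 2.47 times higher in the highest than in the lowest library. Solute carriers and pumps had 10 of 156 measured rows, 6.41%, in the top 1000, and SLC7A3, a cationic amino acid carrier, was their highest at 127, 245 and 206 RPKM. No row of the table carried the symbol of a mitochondrially encoded protein.

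The most abundant rows were short and some were gene copies. Median coding length was 550.5 bases for the top 10, 681 for the top 100, 973.5 for the top 1000 and 1329 for all rows with a mean of at least 1 RPKM. Rows were also split into 5 near-equal classes of coding length. The shortest class, 129 to 669 bases, held 36.4% of summed RPKM and the longest 9.42%. RPKM divides reads by length. With RPKM multiplied by coding length instead, the top 10 rows held 11.8% and the top 100 31.7%. In the top 100, 4 rows were models with 1 coding exon whose symbol also stood on a row with more exons, those of CUL1, TPM3, SCN9A and 1 of the CALM2 rows, and they held 1.36% ± 0.133 (SD, n = 3). Symbols found on several rows marked 32 of the top 100 rows, with 12.1% ± 0.818 (SD, n = 3) of summed RPKM.

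As deposited, the libraries differed more for rare mRNAs than for abundant ones, but this order depended on the scale and on MII15. The SD of log2(RPKM + 1) over the 3 libraries had a median of 0.45 for rows with a mean of 1 to 3 RPKM, 0.43 for 3 to 10, 0.35 for 10 to 30, 0.29 for 30 to 100, 0.27 for 100 to 300, 0.26 for 300 to 1000 and 0.25 above 1000. Without MII15, the same medians over MII14c and MII15c were 0.25, 0.24, 0.20, 0.15, 0.13, 0.13 and 0.20 from the lowest to the highest class. They were lower throughout and rose above 1000 RPKM, but the median SD of 2 values is by itself lower than that of 3. Over all rows, 2 libraries gave 0.20 without MII15, 0.33 without MII14c and 0.42 without MII15c. After median-ratio scaling of all 3 libraries the class medians were 0.41, 0.39, 0.34, 0.32, 0.36, 0.41 and 0.46. The rows above 1000 RPKM then differed most. After quantile normalization they ran from 0.40 down to 0.15. With a pseudocount of 5, the class of 1 to 3 RPKM had the lowest median, 0.18, and that of 10 to 30 RPKM the highest, 0.28. Counting error computed from the recovered depths and coding lengths had a median of 0.11 in the lowest class and 0.0072 in the highest. Of 7617 rows, 96.5% spread more than their counting error. A row's SD can exceed its expected counting error by counting alone, and the share of rows doing so was not computed. Coding length leaves out untranslated ends, so the counting error is an upper value where a gene model holds them. The cDNA was amplified and carries no molecular identifiers, so the computed error covers counting only.

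**Figure D4:**
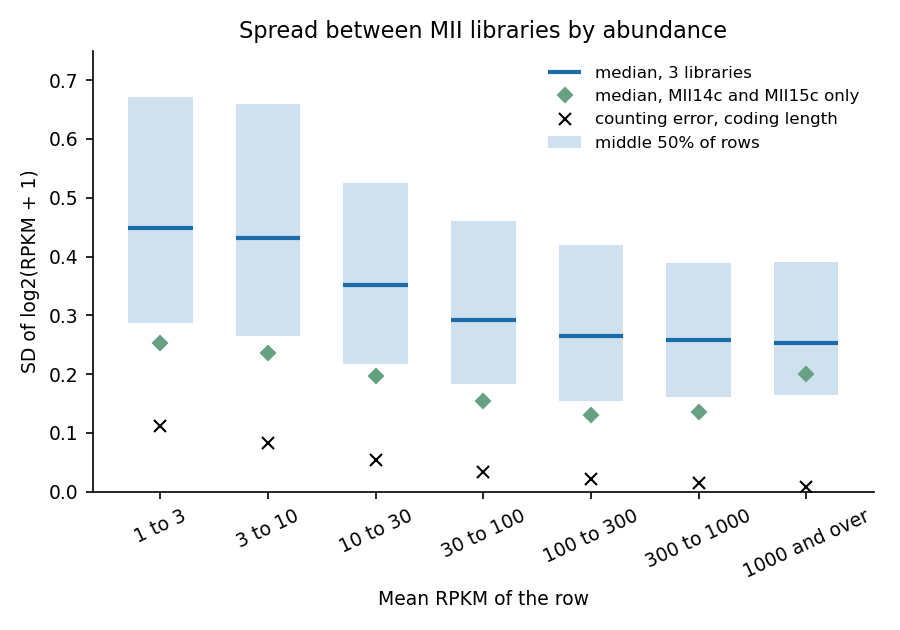
SD of log2(RPKM + 1) between MII libraries (vertical axis) by the mean RPKM of the row (horizontal axis, 7 classes), with bars for the middle 50% of rows, blue lines for the median over 3 libraries, green diamonds for the median over MII14c and MII15c alone and crosses for counting error. As deposited the median over 3 libraries falls from 0.45 to 0.25 with abundance, and the crosses lie under the blue lines in every class. The diamonds turn up to 0.20 in the highest class and rest on 2 libraries, which by itself lowers a median SD.

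MII14c and MII15c were the closest pair in every class but the highest. Over the 7779 rows their median absolute difference was 0.29 on the log2(RPKM + 1) scale, against 0.59 for MII14c and MII15 and 0.47 for MII15 and MII15c. Above 1000 RPKM it was 0.28 for MII14c and MII15c, 0.44 for MII14c and MII15 and 0.22 for MII15 and MII15c. In that class MII15c was therefore nearer to MII15.

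The highest library was at least 2 times the lowest, on RPKM + 1, for 2409 of the 7779 rows, 31.0%. The share was 41.2% at 1 to 3 RPKM and 9.09%, 3 of 33 rows, above 1000 RPKM. Those 3 rows were ACCSL (2164, 1245 and 2545 RPKM), CS and TPM3. MII15 was the library that lay apart in 1744 of the 2409 rows, 72.4%, MII14c in 489 and MII15c in 176. Without MII15, 390 rows, 5.01%, were 2-fold apart, whereas 1403 were without MII14c and 1969 without MII15c. A library set aside leaves a comparison of 2 libraries, which also lowers the count by itself.

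When MII15 lay apart it was mostly low as deposited, in 1433 rows against 311 in which it was high. MII15 was at least 2-fold below both other libraries in 892 rows, 11.5%, and at least 2-fold above both in 164, 2.11%. After median-ratio scaling of the libraries these numbers were 584 and 387. The share of 2-fold rows in which MII15 lay apart and low was 59.5% as deposited and 38.8% after that scaling, so the balance of low and high calls belongs to the scale used. MII14c lay at least 2-fold above both others in 190 rows and below both in 36.

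The direction of MII15 followed abundance. Its median difference from the mean of the other libraries, on log2(RPKM + 1), was -0.40 at 1 to 3 RPKM, -0.39 at 3 to 10, -0.24 at 10 to 30, -0.16 at 30 to 100, 0.04 at 100 to 300, 0.15 at 300 to 1000 and 0.24 above 1000. Over all rows it was -0.27 as deposited and 0.05 after median-ratio scaling. It also moved with coding length, from -0.11 in the shortest of the 5 length classes to -0.48 in the longest. Between 10 and 30 RPKM, rows longer than the median coding length had a median of -0.35 and the others -0.12, and longer rows were lower in every abundance class up to 1000 RPKM. Above 1000 RPKM the 6 longer rows had a median of 0.43 and the 27 shorter rows 0.23. Depth moved with these values, MII15 being the shallowest library, and its part in them was not tested. Abundance was the mean over all libraries, MII15 among them, so a high value in MII15 also moves a row towards a higher class. The size of that effect was not tested.

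**Figure D5:**
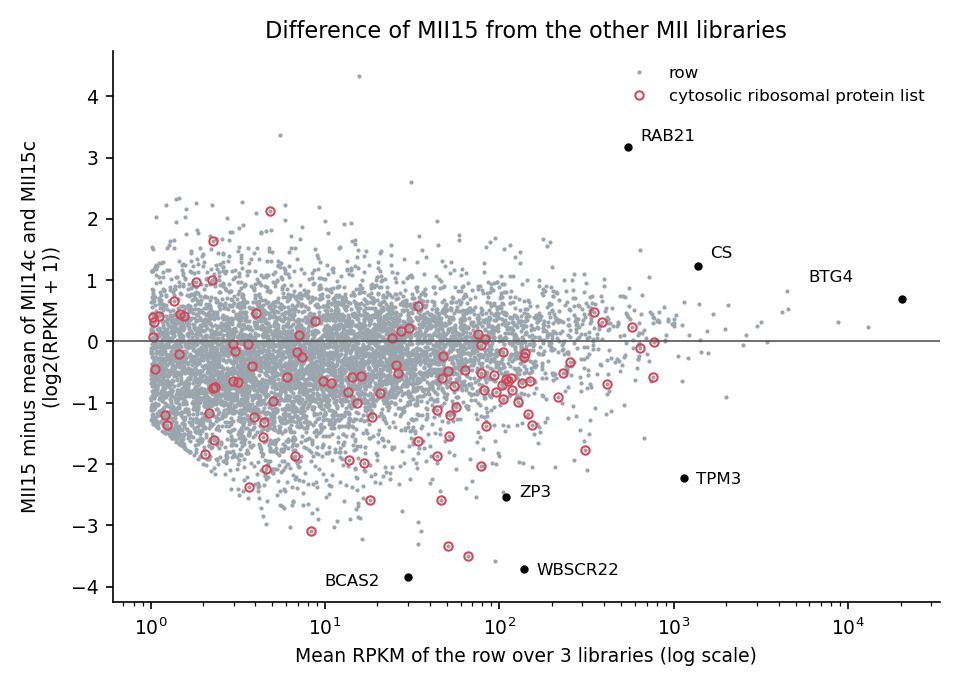
Difference of MII15 from the mean of MII14c and MII15c on log2(RPKM + 1) (vertical axis) against mean RPKM (horizontal axis, log scale), 1 point per row shown with a mean of at least 1 RPKM, open circles for the cytosolic ribosomal protein list and black points for named rows. Most rows under 100 RPKM lie below 0, as do 76 of the 106 ribosomal protein rows in which MII15 was the lowest library.

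Rows at under 0.1 RPKM in 1 library and at 1 RPKM or more in both others numbered 139 for MII15, 68 of them listed at 0, and 4 each for MII14c and MII15c. All 139 had a mean under 10 RPKM, with a median of 1.30 and a highest of 5.33. NPRL2, a subunit of the GATOR complex that restrains mTORC1, stood at 7.65, 0 and 6.10 RPKM, and TUBA1A, an alpha tubulin, at 6.21, 0.049 and 6.91 RPKM. Both were chosen after their values were seen. The reverse pattern, at least 1 RPKM in 1 library and under 0.1 in both others, held for 39 rows in MII15, 13 in MII14c and 11 in MII15c.

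Ribosomal protein mRNAs were lower in MII15. MII15 was the lowest library in 76 of the 106 measured rows, 71.7%, and in 55.7% of all rows, and it was 2-fold below both others in 26, 24.5%, beside 11.5% of all rows. The list's median difference was -0.63 as deposited and -0.27 after median-ratio scaling, against -0.27 and 0.05 over all rows, and it was -0.41 after quantile normalization, so the list was low on each scale. The pattern varied with abundance. MII15 was the lowest library for 22 of 25 ribosomal protein rows of 100 RPKM or more, beside 39.0% of all such rows, and for 33 of 40 from 10 to 100 RPKM, beside 53.0%. From 1 to 10 RPKM it was the lowest for 21 of 41, 51.2%, beside 60.1% of all such rows, and the median difference was -0.40 for both. It was the lowest library in 60 of 73 rows with more than 1 coding exon and in 11 of 24 with 1 coding exon. The remaining rows were in neither class. Median levels of these classes were 54.7 and 2.97 RPKM, so the exon split cannot be told apart from abundance. Median levels over the list were 29.6 RPKM in MII14c, 11.5 in MII15 and 23.3 in MII15c.

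Single ribosomal proteins spanned a wide range. RPL8, of the large subunit, stood at 139, 6.67 and 53.3 RPKM, RPS10, of the small subunit, at 87.5, 6.15 and 58.0 RPKM and RPS15 at 41.4, 2.61 and 10.1 RPKM. In each of these 3 the order was MII14c, then MII15c, then MII15. Others of the list did not share it, as RPS27A, RPS29 (71.1, 79.7 and 75.7 RPKM) and RPL27 (276, 429 and 343 RPKM) show.

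Chromatin genes were also low in MII15 on each scale, with a median difference of -0.61 as deposited, -0.29 after median-ratio scaling and -0.33 after quantile normalization. MII15 was the lowest library in 70.3% of its rows. HIST1H1C, a linker histone, stood at 24.4, 0.913 and 8.48 RPKM. H1FOO, the linker histone of oocytes, stood at 73.4, 43.9 and 90.5 RPKM. Of the 19 histone genes in the list 6, 31.6%, were 2-fold below both others, and of the 82 other chromatin genes 12, 14.6%, were, beside 11.5% of all rows. The histone genes had a median level of 6.11 RPKM. Among all rows from 1 to 10 RPKM, 14.6% were 2-fold below both others.

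For most other lists the sign depended on the scale. Cell cycle genes had a median MII15 difference of -0.25 as deposited, 0.12 after median-ratio scaling and -0.07 after quantile normalization. DNA replication genes stood at -0.08, 0.26 and 0.06. Energy and lipid genes kept a negative sign, at -0.41, -0.07 and -0.16, as did transcription genes, at -0.39, -0.04 and -0.11. Translation factors also kept it, at -0.32, -0.02 and -0.15. So did the 8 rows of zona pellucida and secreted oocyte proteins, at -0.38, -0.04 and -0.45. Respiratory chain genes were at 0.04, 0.41 and 0.26 and redox genes at 0.08, 0.42 and 0.26, above the median of all rows on each scale. Within the cell cycle list 20.1% of rows were at least 2-fold apart and within the splicing list 20.5%, beside 31.0% of all rows. These lists also held more abundant rows, with median levels of 35.3 and 23.8 RPKM against 8.46 RPKM over all rows.

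Maternal-effect genes had the highest share of 2-fold rows among the lists, 14 of 29 or 48.3%, beside 31.0% of all rows. TCL1A, a cofactor of AKT kinases, stood at 20.3, 0.661 and 6.23 RPKM, and NLRP5, a core protein of the subcortical maternal complex also called MATER, at 12.2, 4.16 and 7.66 RPKM. TLE6, its partner in that complex, stood at 11.3, 2.76 and 6.70 RPKM, whereas KHDC3L, another partner, stood at 17.2, 14.7 and 12.7 RPKM. YAP1, the Hippo pathway coactivator, stood at 23.5, 19.8 and 18.8 RPKM. CD9, the tetraspanin that eggs need for sperm fusion, was highest in MII15, at 7.66, 22.9 and 11.7 RPKM. TCL1A, TLE6, KHDC3L, YAP1 and CD9 were chosen after their values were seen.

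Several rows with a mean of at least 10 RPKM stood far higher in MII15 than in both other libraries. RAB21, an endosomal GTPase, stood at 133, 1345 and 167 RPKM, about 10.0 times higher in MII15 than in MII14c, and was 22nd in that library against 473rd and 364th in MII14c and MII15c. The RAB21 row is a model with 1 coding exon on chromosome X, 97425377 to 97427326. ENSBTAG00000017735, which has no symbol or annotation name, stood at 2.31, 44.1 and 0.517 RPKM. AMDHD1, an enzyme of histidine breakdown, stood at 10.8, 71.5 and 10.98 RPKM and SIRT3, the mitochondrial deacetylase, at 22.2, 88.3 and 21.3 RPKM. For AMDHD1 and SIRT3 the other libraries lay within 1 RPKM of each other.

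Rows far lower in MII15 included WBSCR22, a methyltransferase of ribosomal RNA, at 207, 14.4 and 194 RPKM. BCAS2, a spliceosome protein, stood at 44.3, 2.12 and 43.7 RPKM on the row of the 2 carrying its symbol that has 2 coding exons. The other BCAS2 row was more abundant and highest in MII15, at 174, 209.7 and 157 RPKM. VPS72, a histone-exchange protein that the symbol alone put into the membrane traffic list, stood at 183, 9.93 and 91.2 RPKM. Among the 1000 highest rows, UCHL1, a deubiquitinase, stood at 213, 22.6 and 77.6 RPKM, CDK5, a cyclin-dependent kinase, at 111, 16.7 and 93.0 RPKM, NCL, nucleolin, at 100.6, 16.0 and 77.1 RPKM, and MNS1, a meiosis-specific nuclear protein, at 99.2, 18.98 and 92.3 RPKM. MII15 was the lowest library for all of these apart from the more abundant BCAS2 row.

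Rows high in MII14c beside the ribosomal proteins were PHB, prohibitin of the inner mitochondrial membrane (38.0, 1.5 and 6.01 RPKM), and PAF1, of the polymerase-associated elongation complex (33.7, 1.22 and 6.89 RPKM). CDO1, cysteine dioxygenase (63.1, 3.94 and 36.2 RPKM on a row with 1 coding exon), and SMAP2, an Arf GTPase activator (32.3, 1.47 and 15.02 RPKM), were also among the 12 most variable rows. Each of these 4 rows ran from MII14c down to MII15. Another CDO1 row was more abundant and close between libraries, at 99.9, 86.0 and 99.4 RPKM. Rows low in MII14c alone were CXCR4, a chemokine receptor (8.65, 41.1 and 41.1 RPKM), PRDX6, a peroxiredoxin (20.4, 56.2 and 70.5 RPKM), HSD11B2, which inactivates cortisol (4.31, 13.8 and 16.0 RPKM), and PNP, a purine salvage enzyme (2.97, 10.9 and 24.5 RPKM).

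MII15c differed alone in the fewest rows. STC1, a secreted glycoprotein hormone, stood at 5.82, 2.79 and 36.2 RPKM, and TMEM171, a membrane protein, at 11.9, 11.7 and 34.4 RPKM. SHISA2, which retains growth factor receptors in the endoplasmic reticulum, stood at 7.15, 7.08 and 19.6 RPKM. ENSBTAG00000024874, which the annotation names MAD2, stood at 106, 62.9 and 306 RPKM, while the MAD2L1 row was at 451, 415 and 589 RPKM. Lower in MII15c were SYCP1, of the synaptonemal complex (16.2, 16.0 and 5.23 RPKM), CALML4, a calmodulin-like protein (16.1, 12.3 and 4.07 RPKM), and ENSBTAG00000035199, named by the annotation as mitochondrial ribosomal protein L33 (119, 84.99 and 36.9 RPKM).

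Some abundant mRNAs were nearly equal in all 3 libraries. The 6 of the top 1000 with the smallest SD were RPS27A (SD 0.0064), CTNNA1, alpha-catenin (174, 177 and 175 RPKM), SNRPD1, an Sm protein (135, 134 and 137 RPKM), POLR2K, shared by the nuclear RNA polymerases (70.9, 69.7 and 71.2 RPKM), FEZ2, a kinesin adaptor (78.5, 80.4 and 80.3 RPKM), and PRDX3, the mitochondrial peroxiredoxin (122.6, 123.5 and 126 RPKM). Their highest library was at most 1.03 times the lowest. They were chosen for that, so their closeness is a description.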

How the data were processed

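The authors deposited 1 table of RPKM for 20707 rows and an annotation, per the file headers. DESeq appears in the submitters' processing notes with no role. Aligner, counter and build are not stated there or in the labels, and coordinates are those of the authors' annotation, counted from 1. No column of the table was without a stage. Values were used as deposited in pandas 2.3.3 and numpy 2.4.6. Rows were ranked by mean share of summed RPKM over the 3 MII libraries, and spread was the SD of log2(RPKM + 1), a pseudocount of 1, for rows with a mean of at least 1 RPKM. RPKM are not read counts and 1 stage has no contrast, so no test or count model was run. Scripts were tested on simulated data.

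Depth was the value that made low RPKM of 3662 coding-only rows whole reads, within 0.1 read for 89.7% to 93.9% of 203 to 378 values. At 2 kb, 1 RPKM is 42.7 to 65.3 reads.

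The naming rule took the 10 highest rows and up to 4 per list in the top 100. It also took the highest per list at ranks 101 to 1000 and the 12 most variable rows of at least 10 RPKM. The rest were the 4 farthest above and below in each library, the 6 most stable of the top 1000, and the markers. Some rows that met this rule are not named. AURKA, KIF20B, TPX2, MAD2L1, CNOT7, SUMO2, PSMA5, NLRP14, RPS29, RPL27 and ACCSL fall outside this rule and were chosen after their values were seen. So were UCHL1, CDK5, NCL, MNS1, FAM58A and other rows so described. For 2 named rows no values are reported here, and the plots leave them out. The libraries and lists were chosen with earlier results of these data known.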

Additional observations from a re-analysis of the deposited data

How the results depend on the processing

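Most shares kept within their SD over the libraries. Counts, and percents of 2-fold rows, have no such SD and mostly stayed within 1.5 times their main value. With RPKM multiplied by coding length, the top 10, 100 and 1000 rows held 11.8%, 31.7% and 72.7%, splicing and cytoskeleton had 1 and 3 top-100 rows, and the mRNA storage, cell cycle, ubiquitin and ribosomal protein lists held 5.37%, 8.79%, 5.41% and 1.11%. With 19 rows placed by hand, an alternative added after seeing the data, mRNA storage had 5 top-100 rows and the cell cycle list held 9.27%.

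The median SD was 0.24 with a pseudocount of 5 and 0.14 with no filter. Rows at least 2-fold apart numbered 766 with a pseudocount of 5, 1214 at a mean of at least 5 RPKM, and 4276 after scaling each library to an equal sum, where 1 unit is a lower threshold. MII15 lay apart and low in 38.8% of 2-fold rows with median-ratio scaling, 38.6% by quantile normalization and 36.1% with its median difference subtracted per abundance class (added after seeing the data), against 59.5% as deposited. MII14c lay apart and high in 7.61% and 8.52% after those scalings, against 16.1%.

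Leaving out each library in turn gave 390 to 1969 rows 2-fold apart and a median SD of 0.20 to 0.42, the lowest without MII15. The top 10, 100 and 1000 then held 17.4% to 20.8%, 38.4% to 42.6% and 75.1% to 78.4%. The mRNA storage, cell cycle, ubiquitin and ribosomal protein lists held 6.52% to 7.97%, 8.14% to 8.47%, 6.30% to 6.66% and 2.16% to 2.64%. Top-100 rows numbered 9 to 12 for cell cycle, 7 to 8 for ubiquitin, 5 to 6 for splicing, 5 to 7 for cytoskeleton and 3 for mRNA storage. No paired analysis was possible because the results come from no test. The computed counting error was largest for rows of 1 to 3 RPKM, and MII15 was the shallowest library. The part of depth in these results was not tested.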

Other observations

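Several abundant rows belonged to no function list. ACCSL, at 2164, 1245 and 2545 RPKM in MII14c, MII15 and MII15c, was the 14th row of the pool, and THAP9, a transposase-derived protein, was the 21st at 1047, 1799 and 1326 RPKM. TOMM7 and TOMM6, small subunits of the mitochondrial import pore, stood at 816, 925 and 666 RPKM and at 624, 917 and 722 RPKM. OCLN, the tight junction protein occludin, stood at 502, 1096 and 554 RPKM, with MII15 2.18 times MII14c. DDX3X, an RNA helicase of translation, stood at 712, 303 and 544 RPKM. BCAR4 and LINC00339, whose human symbols belong to noncoding RNAs, stood at 524, 648 and 697 RPKM and at 888, 943 and 867 RPKM, each with 1 coding exon in the authors' annotation. All were chosen after their values were seen.

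FAM58A, cyclin M, a partner of CDK10, stood at 836, 291 and 902 RPKM. AURKB, the mitotic kinase of the chromosomal passenger complex, stood at 109, 319 and 171 RPKM and was highest in MII15, whereas AURKC, its meiotic relative, stood at 383, 357 and 511 RPKM. Both Aurora rows were chosen by value.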
